A study of Homo sapiens with 20 samples.

Results

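IMR-32 neuroblastoma cells that had received prexasertib together with Dyngo-4a were set directly against cells that had received Dyngo-4a alone at its high dose, 4 libraries in each group, so 8 of the 20 libraries of the series. IMR-32 is an established human cell line of wild-type genotype per the labels, and every result comes from this 1 line. The combination group received both drugs for 24 h; the labels leave its doses open and no other source used here states them. The high-dose group received Dyngo-4a at 2.26 µM for 24 h, and the DMSO group, 4 libraries of vehicle-treated cells at the same time point, is given beside them as the background. All 20 libraries carry the same batch label. Because the Dyngo-4a dose of the combination is not stated, another dose of Dyngo-4a and the presence of prexasertib cannot be told apart as sources of any difference below. The remaining 2 groups of the series, Dyngo-4a at 1 µM and prexasertib at 2 nM, entered the statistical model. Of 58787 genes in the deposited table, 13729 passed the low-count filter and were tested.

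Prexasertib inhibits CHK1, the kinase that holds replication forks and mitotic entry in check when DNA synthesis stalls. Dyngo-4a blocks dynamins, the GTPases that pinch vesicles off membranes, and the series title pairs CHK1 with MUS81, an endonuclease that cuts stalled forks. Cells under stress draw on several separable programmes. The kinases that phosphorylate the initiation factor eIF2 raise ATF4, which turns on amino acid supply and, with CHOP, death genes. Unfolded protein in the cytosol raises heat shock proteins, and damaged DNA raises the genes of the p53 pathway, which arrest the cycle. In neuroblastoma these run in cells that keep the identity of sympathetic neuron precursors.

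The combination libraries held 4386254 to 6017433 counts and the high-dose libraries 4932153 to 5693049, so a count of 0 allows up to 3 counts, less than 1 CPM (TMM-scaled counts, relative to the library total), in any of them. On the first principal component, with 17.7% of the variance, the high-dose libraries lay between -28.2 and -18.9, the combination libraries between -8.2 and -2.9 and the DMSO libraries between 9.58 and 14.2. On the second, with 13.4%, the combination libraries lay at 15.5 to 26.8 and the high-dose libraries at -11.8 to -6.0. The third, with 11.7%, set replicates 1 and 3 apart from replicates 2 and 4. Whether replicate libraries stem from separate cultures is not said in the labels, so the p-values measure the spread between these libraries, which may be technical. The adrenergic markers of the line were present, 17 of 18 at 1 CPM or more, with summed levels of 7762 to 8299 CPM in the combination, 8454 to 9284 in the high dose and 8456 to 9500 in DMSO. Mesenchymal markers summed to 139 to 194 CPM in the combination and 137 to 167 in the high dose, with PRRX1 and TWIST2 at 0. Of the 9 tested mesenchymal markers 2 were called higher, ACTA2, a smooth muscle actin, with a log2 fold change of 1.34 and COL1A1, a collagen chain, with 0.82, and 1 lower, SNAI2, a transcription factor, with -0.86 (edgeR's quasi-likelihood test, adjusted p = 0.000667, 0.0012 and 0.00124); of all genes tested 10.4% were called higher and 10.1% lower. The part of these markers in the results was not tested. Schwann and glial markers summed to 47.6 to 52.1 CPM in the combination and 38.3 to 44.6 in the high dose, with SOX10 and CDH19 at 0. Immune markers stayed under 4 CPM in every one of these libraries. In bulk RNA, fewer cells of a kind and less RNA per cell cannot be told apart.

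The promoters of 4 genes are shown because each gene stands for a list described below whose members moved together, and because each holds the motif by which that list is known. The windows run from 250 bases before to 50 bases after the annotated start, 5′ to 3′ on the gene's strand, from RefSeq on GRCh38.p14, and capitals mark the motif. For CHAC1 (chr15:40953221-40953520, plus strand) and ASNS (chr7:97872359-97872658, minus strand) the motif is the C/EBP-ATF response element core TGATGNAA, on the opposite strand in CHAC1. For HSPA1B (chr6:31827488-31827787, plus strand) it is the heat shock element core GAANNTTC. For HMMR (chr5:163460382-163460681, plus strand) it is the cell cycle genes homology region TTTGAA, present as 2 adjoining matches.
CHAC1: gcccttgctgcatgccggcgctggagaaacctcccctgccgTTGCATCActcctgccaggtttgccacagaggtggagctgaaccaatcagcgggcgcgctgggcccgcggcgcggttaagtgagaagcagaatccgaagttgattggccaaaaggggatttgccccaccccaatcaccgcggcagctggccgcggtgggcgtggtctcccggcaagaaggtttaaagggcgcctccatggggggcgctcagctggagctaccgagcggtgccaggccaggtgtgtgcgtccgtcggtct
ASNS: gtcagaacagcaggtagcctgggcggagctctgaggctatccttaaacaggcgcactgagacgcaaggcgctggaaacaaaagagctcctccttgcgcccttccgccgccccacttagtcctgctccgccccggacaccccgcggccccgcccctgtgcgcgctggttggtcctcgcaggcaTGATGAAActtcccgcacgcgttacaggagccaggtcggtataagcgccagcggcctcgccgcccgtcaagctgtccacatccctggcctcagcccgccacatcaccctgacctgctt
HSPA1B: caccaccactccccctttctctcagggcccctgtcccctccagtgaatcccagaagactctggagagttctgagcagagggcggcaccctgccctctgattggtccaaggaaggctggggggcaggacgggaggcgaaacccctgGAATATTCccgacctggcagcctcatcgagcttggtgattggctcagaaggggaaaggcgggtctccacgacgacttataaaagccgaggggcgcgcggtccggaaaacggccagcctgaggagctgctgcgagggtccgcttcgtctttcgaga
HMMR: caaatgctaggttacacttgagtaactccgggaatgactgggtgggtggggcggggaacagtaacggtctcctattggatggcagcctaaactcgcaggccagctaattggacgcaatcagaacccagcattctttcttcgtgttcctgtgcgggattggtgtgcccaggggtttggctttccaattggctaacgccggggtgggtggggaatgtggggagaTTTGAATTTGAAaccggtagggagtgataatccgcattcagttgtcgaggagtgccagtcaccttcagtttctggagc
The match began 209 bases before the start in CHAC1, 68 before it in ASNS, 105 before it in HSPA1B, and 28 and 22 before it in HMMR. Each window was searched on both strands for the motif of its own list alone. TGATGNAA was found in 5 of the 22 ATF4 and CHOP targets with a promoter in the table (22.7%), against 3.67% of all 27305 promoters. GAANNTTC was found in 6 of 18 heat shock genes (33.3%), against 6.87% of all promoters. TTTGAA was found in 21 of 27 kinesin, centromere and spindle genes (77.8%) and 8 of 17 mitotic kinase and cyclin genes (47.1%), against 15.4% of all promoters. Lists with fewer members called also held their motif more often than all promoters did. The E2F site GGCGGGAA was in 21.4% of licensing and 27.3% of fork polymerase and nucleotide supply genes, against 3.18%. The E-box CACGTG was in 31.6% of ribosome biogenesis genes, against 7.43%. A link between a motif and the differences in expression was not tested. A match of letters describes the sequence and does not show that a factor binds there.

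Between the combination and the high dose, 2816 of the 13729 genes passed edgeR's quasi-likelihood test at an adjusted p of 0.05, 20.5% of those tested. Of these, 1428 were higher in the combination (10.4%) and 1388 were lower (10.1%). Most differences were modest: the median size among called genes was 0.54 on the log2 scale, with quartiles at 0.41 and 0.78, and 420 genes differed at least 2-fold. The 2-fold changes leaned upward, with 296 higher and 124 lower. The 4 libraries of both groups did not overlap for 2842 genes (20.7%), of which 2211 were also called. The counts given here come from a fit without the replicate number. With it as a block 4002 genes were called between the treated groups. Against DMSO the combination had 865 called genes (6.3%) and the high dose had 3456 (25.2%); these comparisons share the DMSO libraries, and each shares a treated group with the direct comparison, so their values are given side by side without a further test.

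**Figure D1:**
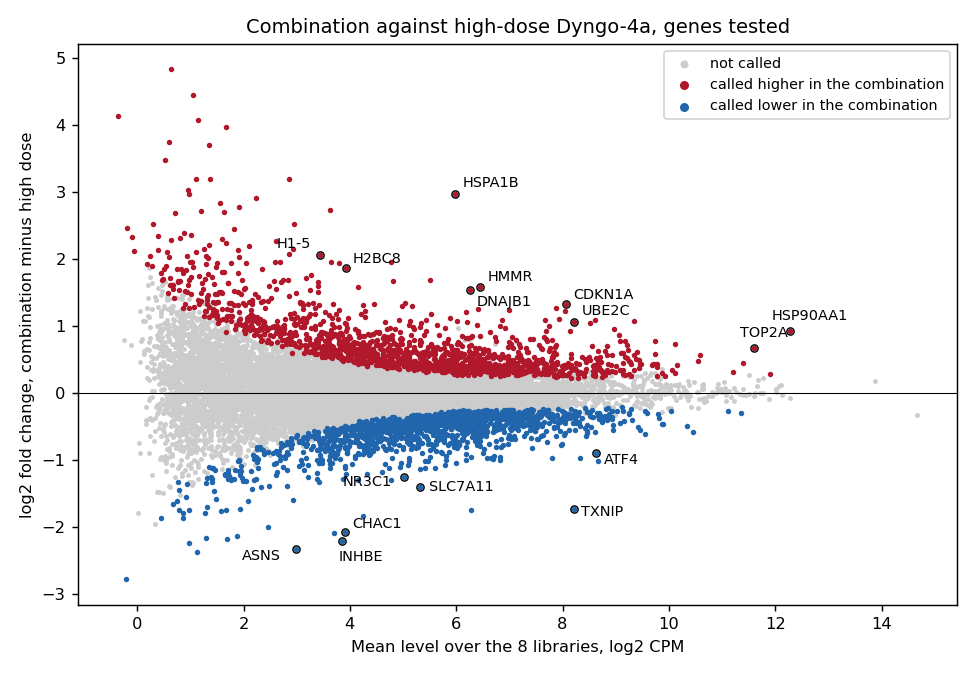
Log2 fold change of the combination over the high dose (vertical axis) against the mean level over the 8 libraries in log2 CPM (horizontal axis) for the 13729 genes tested, with the 1428 called higher in red, the 1388 called lower in blue and labelled genes circled. HSPA1B stands highest among the labelled genes at 2.97, and ASNS, INHBE, CHAC1 and TXNIP stand lowest.

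Set beside those shares, the lists of known function differed from each other. The lists and their members were chosen with earlier results of these data known. Their shares are therefore description and no independent support. Among the 37 lists, which held 735 tested genes, 6 had over 40% of their members called higher: heat shock proteins, arrest and feedback genes of the p53 pathway, kinesins and spindle genes, replication-dependent histones, mitotic kinases and cyclins, and proteasome subunits. Targets of ATF4 and CHOP had 78.6% of their members called lower, and aminoacyl-tRNA synthetases 45.0%. Cytosolic ribosomal proteins had 0 of 40 members called (median 0.02), and the CCT chaperonin, which folds tubulin and actin, had 0 of 8. At an unadjusted p of 0.05, 1 of the 40 ribosomal genes and 2 of the 8 chaperonin genes passed edgeR's test; DESeq2 called 0 and 1, limma-voom 0 and 0, and edgeR with a block for the replicate number 1 and 3. Over all genes tested the median log2 fold change was 0.01.

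**Figure D2:**
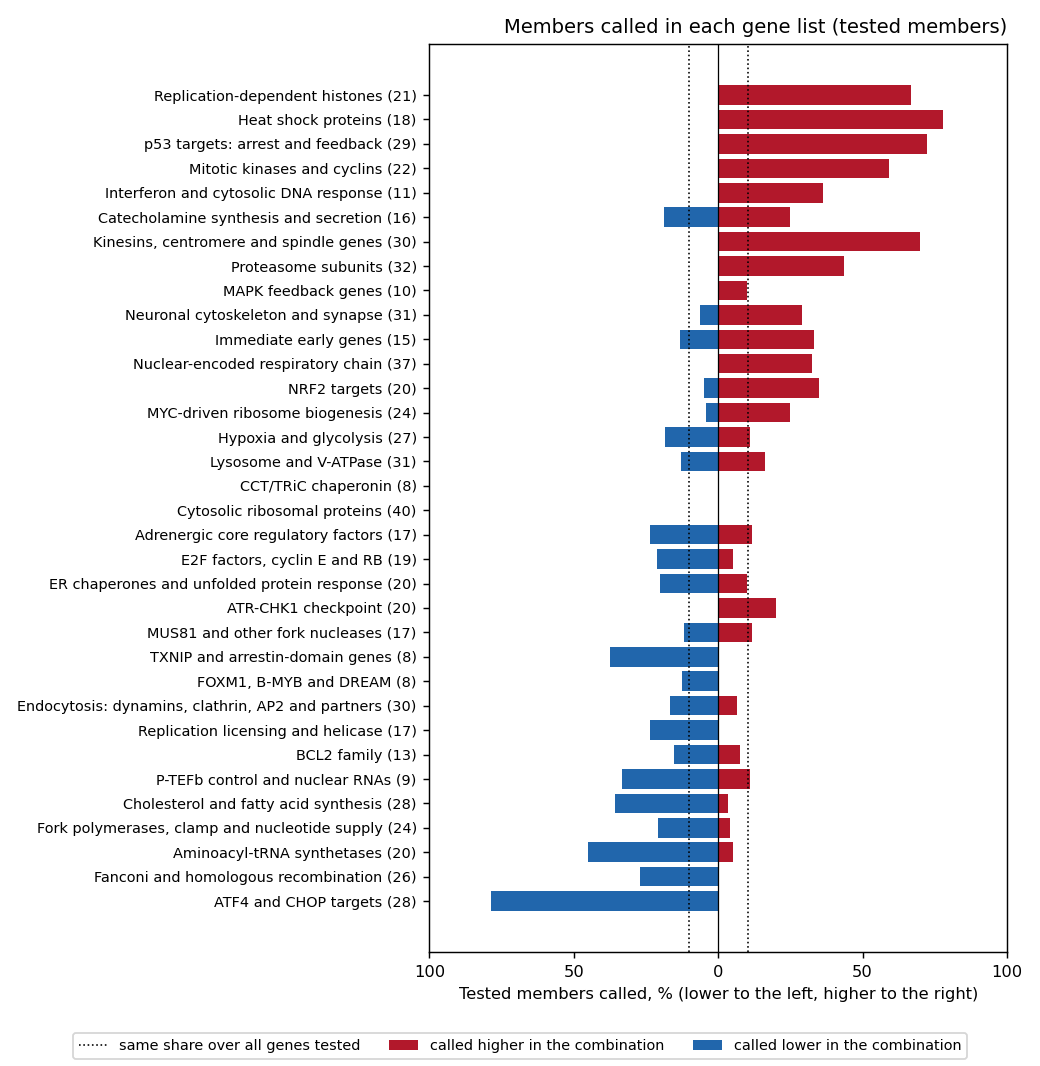
Percentage of the tested members of 34 gene lists (all but the 3 lists of markers of other cells) that were called higher (red, to the right) or lower (blue, to the left) in the combination than in the high dose, ordered by the median log2 fold change of the list, with the number of tested members in brackets and dotted lines at the shares over all genes tested, 10.4% and 10.1%. Heat shock proteins, p53-pathway genes and kinesins extend furthest to the right, and ATF4 and CHOP targets extend furthest to the left.

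The amino acid and stress programme of ATF4 and CHOP was lower in the combination. Of 28 tested targets 22 fell and 0 rose, with a median log2 fold change of -0.81; against DMSO the median was 0.32 in the combination and 1.06 in the high dose. ATF4 itself (chromosome 22, 39519695 to 39522685, GRCh38), the transcription factor at the head of the programme, measured 291, 303, 286 and 286 CPM in the combination libraries, against 467, 592, 499 and 625 in the high-dose libraries and 278, 230.4, 301 and 318 in DMSO. The combination lay within the DMSO range and below every high-dose library. The log2 fold change was -0.90 ± 0.10 SE (adjusted p = 4.07e-08). DDIT3, which encodes CHOP, the factor that turns a prolonged stress response towards death, measured 31.5, 30.2, 39.9 and 31.7 CPM in the combination, against 56.4, 84.6, 60.6 and 86.6 in the high dose and 16.4, 17.5, 16.9 and 20.7 in DMSO. All 4 combination libraries lay below all 4 high-dose libraries and above all 4 DMSO libraries, and the log2 fold change of DDIT3 was -1.12 ± 0.14 SE (adjusted p = 2.26e-07).

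Falls of over 2 on the log2 scale were found among the genes that ATF4 and CHOP turn on. CHAC1, which degrades glutathione and whose promoter is shown above, measured 6.44, 7.75, 7.94 and 6.89 CPM in the combination, against 29.97, 42.1, 19.8 and 30.6 in the high dose and 3.62, 2.76, 3.83 and 3.68 in DMSO. The high-dose libraries were spread widely, but the lowest of them was still above the highest combination library. Its log2 fold change was -2.07 ± 0.24 SE (adjusted p = 4.23e-08). ASNS, asparagine synthetase, measured 3.77, 3.79, 3.63 and 2.18 CPM in the combination and 16.6, 14.9, 18.1 and 17.5 in the high dose, without overlap, a log2 fold change of -2.33 ± 0.27 SE (adjusted p = 8.05e-08). INHBE, a subunit of activin, measured 7.32, 6.03, 7.26 and 5.8 CPM in the combination and 26.4, 39.3, 23.8 and 32.1 in the high dose and fell by 2.21 (adjusted p = 5.76e-10). ULBP1, a ligand of the natural killer cell receptor NKG2D, measured 8.21, 7.41, 5.45 and 3.99 CPM in the combination and 27.4, 26.8, 19.4 and 33.2 in the high dose and fell by 2.09 (adjusted p = 1.42e-08). Again neither gene's groups overlapped. Cystine and amino acid carriers fell too: SLC7A11, the cystine transporter, fell by 1.41, SLC7A1, a carrier of arginine and lysine, by 0.95, and SLC3A2, the heavy chain that pairs with SLC7A11, by 0.80. Enzymes of serine and one-carbon metabolism also fell, PSAT1 by 0.96, PHGDH by 0.82, SHMT2 by 0.68 and MTHFD2 by 0.57. VLDLR, a lipoprotein receptor, fell by 1.21.

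Not every stress target followed. ATF3, a stress transcription factor, measured 33.1, 27.6, 38.4 and 29.4 CPM in the combination, against 37.7, 33.3, 27.2 and 37.7 in the high dose and 7.61, 9.28, 8.66 and 8.65 in DMSO, with a log2 fold change of -0.09 between the treated groups (adjusted p = 0.761). SESN2, a brake on the growth kinase mTORC1, measured 65.2 ± 11.3 CPM in the combination, 76.3 ± 16.2 in the high dose and 20.9 ± 0.709 in DMSO (SD, n = 4 each) and was not called (adjusted p = 0.221). PPP1R15A, the phosphatase subunit that reverses eIF2 phosphorylation, had a log2 fold change of -0.08 and was not called either. For these genes both treated groups lay above DMSO, while the treated groups overlapped each other.

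Aminoacyl-tRNA synthetases, which charge tRNAs with amino acids, had 9 of 20 tested members lower and 1 higher, VARS1, whose call was lost without combination replicate 1, 2 or 4 or high-dose replicate 2, 3 or 4 (adjusted p up to 0.118). The list's median was -0.22. CARS1, the cysteinyl enzyme, measured 72.8, 78.6, 65.8 and 76.3 CPM in the combination, against 146, 147, 121 and 168 in the high dose and 71.7, 80.2, 68.9 and 81.01 in DMSO, a log2 fold change of -0.99 ± 0.10 SE (adjusted p = 6.15e-09). The combination libraries sat at the DMSO level and the high-dose libraries above both, with no overlap. AARS1, TARS1, GARS1 and EPRS1 fell by 0.87, 0.60, 0.53 and 0.52.

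TXNIP (chromosome 1, 145992435 to 145996600), an arrestin-domain protein that binds thioredoxin and limits glucose uptake, measured 171, 183, 158 and 146 CPM in the combination, against 445, 543, 546 and 647 in the high dose and 69.7, 72.7, 63.3 and 57.5 in DMSO. The 3 groups did not overlap, and the combination lay between the other two. Its log2 fold change was -1.73 ± 0.10 SE between the treated groups (adjusted p = 1.41e-15), 1.33 for the combination against DMSO and 3.06 for the high dose against DMSO. ARRDC4, its close relative, measured 9.54, 10.5, 8.17 and 11.4 CPM in the combination, against 23.3, 31.9, 39.2 and 48.9 in the high dose, and fell by 1.84 (adjusted p = 1.08e-07). ARRDC3 fell by 0.60, so 3 of 8 tested genes of this list were lower and 0 were higher. MLXIP and MLX, which encode the factors that drive TXNIP, had log2 fold changes of -0.15 and -0.02 and were not called.

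**Figure D3:**
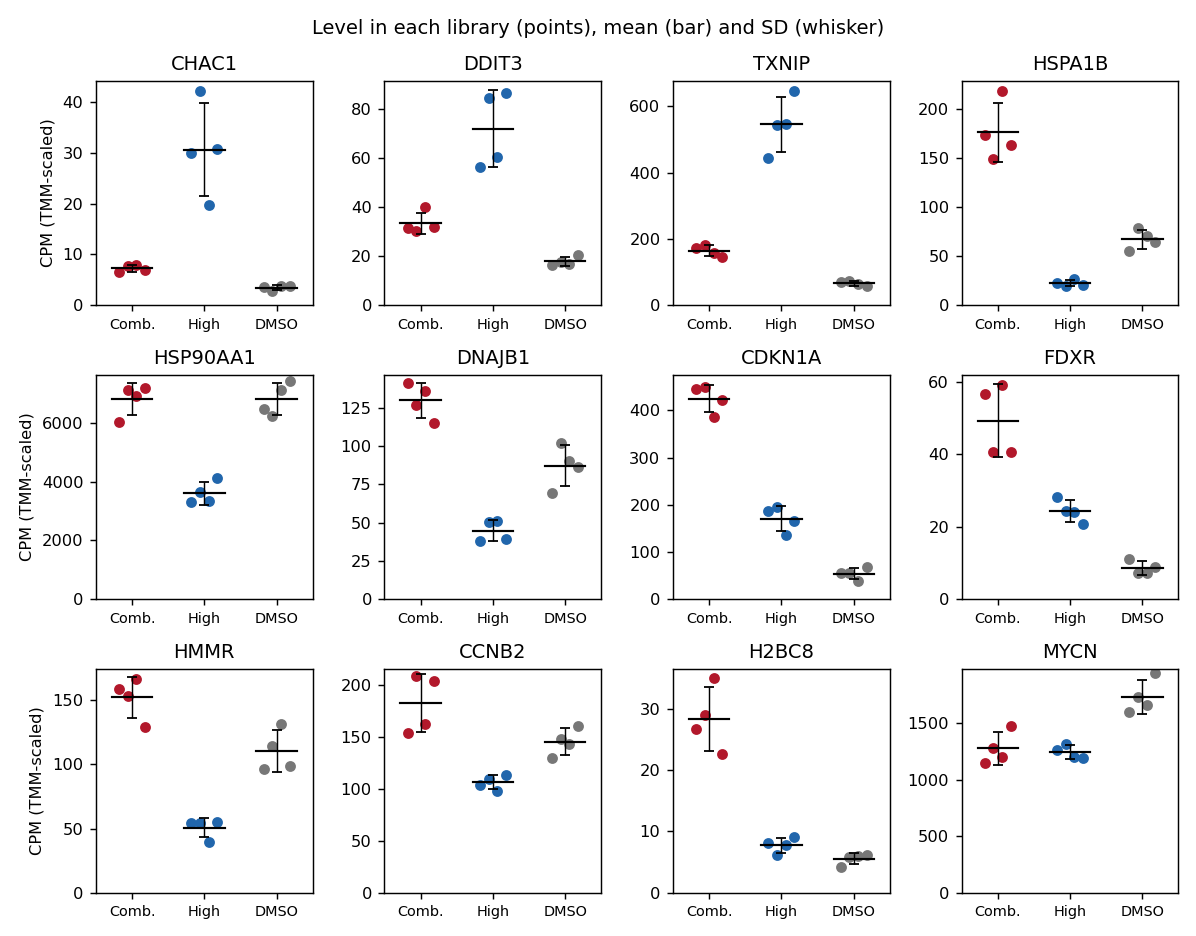
Level of 12 genes in each library in CPM scaled by TMM (vertical axis, starting at 0; points), with the mean (bar) and SD (whisker) of 4 libraries, for the combination (red), the high dose (blue) and DMSO (grey). CHAC1, DDIT3 and TXNIP are low in the combination and high in the high dose, the chaperone, p53-pathway, mitotic and histone genes run the other way, and MYCN overlaps between the treated groups.

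Heat shock proteins, chaperones mostly of the cytosol, had 14 of 18 tested members higher in the combination and 0 lower, with a median log2 fold change of 0.70. Against DMSO the list's median was -0.16 in the combination and -0.66 in the high dose. HSPA1B (chromosome 6, 31827735 to 31830255), an inducible HSP70, measured 174, 149, 219 and 164 CPM in the combination, against 22.9, 19.99, 26.8 and 20.1 in the high dose and 55.4, 78.2, 70.7 and 64.2 in DMSO. No 2 groups overlapped, with DMSO in between. Its log2 fold change of 2.97 ± 0.14 SE (adjusted p = 1.24e-16) was the largest rise among called genes whose mean log2 CPM reached 3 and whose groups did not overlap. HSPA1B has a near-identical copy, HSPA1A, to which 8 to 30 counts were assigned in the combination libraries and 0 to 4 in the high-dose libraries, against 783 to 963 and 109 to 148 for HSPA1B, so the split between the copies is uncertain. DNAJB1, an HSP40 that delivers clients to HSP70, measured 141, 127, 136 and 115 CPM in the combination, against 38.1, 50.2, 51.3 and 39.1 in the high dose and 69.5, 102, 90.5 and 86.3 in DMSO, again with no overlap, and rose by 1.54 (adjusted p = 5.19e-11). These 2 genes were above DMSO in the combination and below it in the high dose.

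HSP90AA1, the stress-inducible HSP90, measured 6035, 7150.2, 6928 and 7202 CPM in the combination, against 3296, 3659, 3340.1 and 4137 in the high dose and 6495, 6260.1, 7133 and 7445 in DMSO. The combination and DMSO overlapped, and both were above every high-dose library, a log2 fold change of 0.92 ± 0.09 SE between the treated groups (adjusted p = 4.21e-09). DNAJA1, another HSP40, measured 350.2, 373, 348 and 356 CPM in the combination, against 176, 179, 157 and 155 in the high dose and 379, 442, 380.4 and 398 in DMSO and rose by 1.10. HSPB1, a small heat shock protein, rose by 1.08, and HSPE1, which caps the mitochondrial chaperonin, by 0.93. HSPA8, the constitutive HSC70, and HSPH1, an HSP70 exchange factor, rose by 0.71 and 0.71. HSPA4L, an HSP110 protein, measured 101, 91.3, 83.8 and 92.7 CPM in the combination, against 58.8, 52.6, 41.4 and 52.4 in the high dose and 40.9, 44.6, 38.5 and 38.9 in DMSO, with the combination above both other groups and the high dose overlapping DMSO; it rose by 0.85 (adjusted p = 1.43e-07). HSPD1, HSPA9, HSP90AB1 and DNAJB6 were not called (log2 fold changes 0.18, 0.17, 0.18 and -0.04).

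Proteasome subunits, which degrade ubiquitinated protein, had 14 of 32 tested members higher and 0 lower (median 0.30), and 25 higher with the replicate number as a block. Their differences were small and alike: PSMC2, an ATPase of the cap, rose by 0.60, PSMD12 by 0.52 and PSMD11 by 0.44. PSMD12 measured 188, 160.4, 179 and 189 CPM in the combination, against 121, 119, 118 and 141 in the high dose and 192, 201, 219 and 188 in DMSO. The combination libraries lay above the high-dose libraries and below or at the low end of DMSO. The antioxidant targets of NRF2 had 7 of 20 tested members higher and 1 lower, SLC7A11, which is also an ATF4 target. GCLM, the modifier subunit of glutamate-cysteine ligase in glutathione synthesis, measured 53.5, 56.5, 59.5 and 62.4 CPM in the combination, against 26.03, 35.3, 25.9 and 25.8 in the high dose and 88.9, 111, 89.1 and 88.4 in DMSO, and rose by 1.03 (adjusted p = 4.23e-08). Its 3 groups did not overlap, and the combination stood between the high dose and DMSO. HMOX1, haem oxygenase, measured 10.2, 3.96, 6.81 and 8.34 CPM in the combination and 2.56, 3.06, 1.81 and 2.95 in the high dose and rose by 1.47 (adjusted p = 0.000279). SQSTM1, the autophagy receptor that NRF2 also drives, rose by 0.81.

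**Figure D4:**
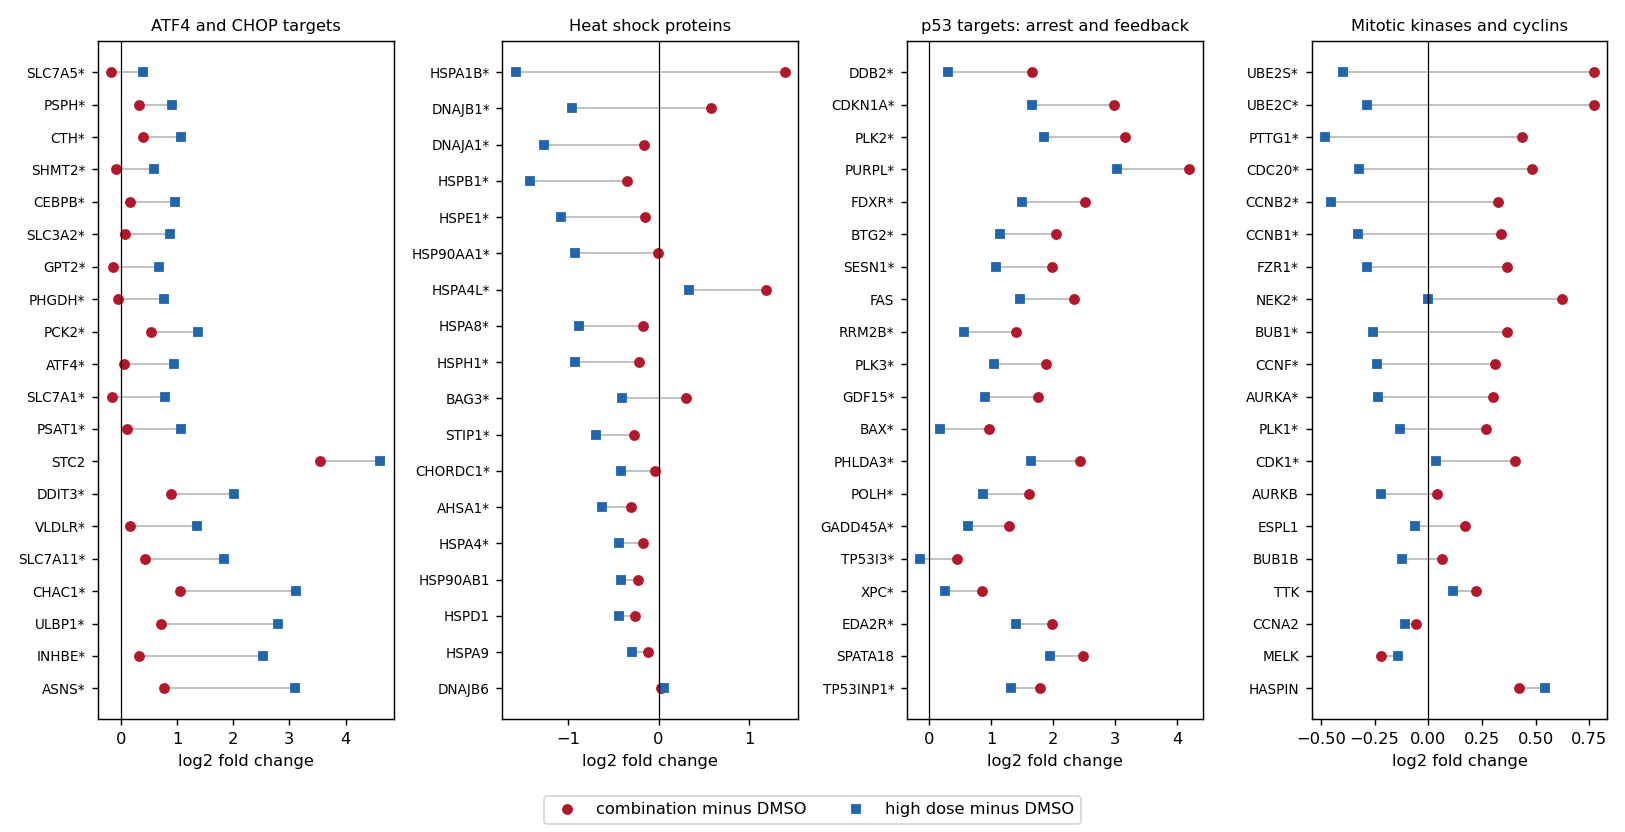
Log2 fold change against DMSO of the combination (red circles) and of the high dose (blue squares) for the 20 members (18 for heat shock proteins) with the largest difference in each of 4 gene lists, joined by a grey line, with a star at genes called between the combination and the high dose. Red lies left of blue for all 20 ATF4 and CHOP targets shown, and right of it for 17 of 18 heat shock genes, all 20 p53-pathway genes and 18 of 20 mitotic genes.

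Genes of the p53 pathway that arrest the cycle, repair DNA or feed back on the pathway had 21 of 29 tested members higher in the combination and 0 lower, with a median of 0.67. Both treated groups lay above DMSO for this list, with medians of 1.65 in the combination and 0.86 in the high dose. CDKN1A (chromosome 6, 36676460 to 36687339), the cyclin-dependent kinase inhibitor p21, measured 444, 449.7, 385 and 421 CPM in the combination, against 186, 196, 136 and 165 in the high dose and 55.00, 55.9, 37.5 and 67.6 in DMSO. The 3 groups were fully separated, and the log2 fold change between the treated groups was 1.32 ± 0.18 SE (adjusted p = 2.55e-05). DDB2, which recognises ultraviolet damage, measured 63.03, 51.2, 47.9 and 46.2 CPM in the combination, against 23.5, 20.7, 21.2 and 16.6 in the high dose and 18.1, 14.04, 16.5 and 17.1 in DMSO. Here the high dose lay next to DMSO, the combination above both, and DDB2 rose by 1.34 (adjusted p = 5.04e-09). PLK2, a stress-responsive polo kinase, measured 53.7, 41.7, 52.4 and 49.5 CPM in the combination, against 18.7, 15.8, 19.4 and 25.8 in the high dose and 3.62, 7.27, 5.64 and 5.76 in DMSO, and rose by 1.30 (adjusted p = 1.99e-07).

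Further members of the pathway rose as well. FDXR, a mitochondrial reductase, measured 56.6, 40.7, 59.2 and 40.6 CPM in the combination, against 28.2, 24.3, 23.9 and 20.7 in the high dose and 11.04, 7.27, 7.05 and 8.81 in DMSO, a rise of 1.02. The long noncoding RNA PURPL rose by 1.17, BTG2, an antiproliferative gene, by 0.91, SESN1, a sestrin, by 0.89, GDF15, a secreted stress cytokine, by 0.84 and GADD45A, a growth arrest gene, by 0.67. The death genes of the pathway were less uniform. BAX, which opens the mitochondrial outer membrane, measured 38.4, 26.2, 37.00 and 44.4 CPM in the combination and 22.7, 16.03, 19.2 and 25.8 in the high dose and rose by 0.80 (adjusted p = 0.00238). BBC3, which encodes PUMA, measured 119, 136, 113 and 83.6 CPM in the combination, against 84.6, 95.1, 89.96 and 90.1 in the high dose and 21.3, 30.6, 17.5 and 29.3 in DMSO; the treated groups overlapped and it was not called (log2 fold change 0.32, adjusted p = 0.104). PMAIP1, which encodes NOXA, had a log2 fold change of 0.29 and was not called. HRK, a BH3-only killer outside the p53 list, ran the other way, with 13.3, 9.65, 8.4 and 14.1 CPM in the combination, against 24.8, 30.3, 18.9 and 38.2 in the high dose and 5.71, 7.77, 3.83 and 6.08 in DMSO. It fell by 1.30 (adjusted p = 3.91e-05) with no overlap. In the BCL2 family as a whole 1 of 13 tested genes was higher (7.69%) and 2 were lower (15.4%), or 1 lower without combination replicate 1, 2 or 4. Over all genes tested these shares were 10.4% and 10.1%.

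Most tested genes of mitosis were higher in the combination. Of 22 mitotic kinases and cyclins 13 rose and 0 fell (median 0.47), and of 30 kinesin, centromere and spindle genes 21 rose and 0 fell (median 0.40). Against DMSO the medians of these lists were 0.33 and 0.33 in the combination, and -0.23 and -0.04 in the high dose. HMMR (chromosome 5, 163460203 to 163491945), a spindle assembly protein, measured 159, 153, 166 and 129 CPM in the combination, against 54.4, 54.02, 39.4 and 54.8 in the high dose and 96.1, 114, 132 and 98.8 in DMSO. The combination lay above every high-dose library, which in turn lay below every DMSO library, with a log2 fold change of 1.58 ± 0.11 SE between the treated groups (adjusted p = 4.26e-13). KIF20A, a kinesin of cytokinesis, measured 97.2, 86.5, 90.3 and 101 CPM in the combination, against 41.6, 41.8, 39.7 and 55.4 in the high dose and 62.04, 67.9, 62.9 and 71.7 in DMSO, and rose by 1.07 (adjusted p = 5.89e-09). UBE2C, the ubiquitin-conjugating enzyme of the anaphase-promoting complex, measured 387, 412, 409 and 519 CPM in the combination and 182, 210.2, 184 and 254 in the high dose and rose by 1.06 (adjusted p = 2.01e-06). Groups overlapped for neither gene.

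CCNB2, a mitotic cyclin, measured 154, 209, 163 and 204 CPM in the combination, against 104, 109.8, 97.9 and 113 in the high dose and 129.98, 148, 144 and 161 in DMSO, a rise of 0.78 (adjusted p = 2.6e-07). PTTG1, the securin that holds sister chromatids together, rose by 0.92, CDC20, the activator of the anaphase-promoting complex, by 0.80, CCNB1 by 0.67, AURKA by 0.54 and PLK1 by 0.40. TOP2A, the topoisomerase of dividing cells, measured 4250.03, 3995, 3844 and 3602 CPM in the combination, against 2584, 2553, 2269 and 2469 in the high dose and 2088, 2149, 2270.4 and 2256 in DMSO. Its high-dose libraries lay close to DMSO and the combination above both, a rise of 0.67 (adjusted p = 2.32e-07). CENPE, a kinetochore motor, rose by 0.86. The proliferation marker MKI67 measured 789 ± 129 CPM in the combination, 772 ± 76.96 in the high dose and 708 ± 84.8 in DMSO (SD, n = 4 each) and was not called (log2 fold change 0.03, adjusted p = 0.887); CCNA2 and CENPF were not called either (0.05 and 0.10). FOXM1, a transcription factor of mitotic genes, had a log2 fold change of -0.01, and of the 8 tested genes of its list 0 rose and 1, the E2F partner TFDP2, fell (by 0.30).

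Histone genes had the largest median of any list, 1.59 on the log2 scale, with 14 of 21 tested members higher and 0 lower. Most transcripts of these genes end in a stem loop in place of a poly(A) tail, and the library kit primes on poly(A). The counts may therefore cover mainly the polyadenylated share of their RNA, which was not tested. The genes are also near-identical copies of each other, and assignment among them is uncertain. H2BC8 measured 26.6, 28.9, 34.95 and 22.7 CPM in the combination, against 8.09, 6.12, 7.8 and 9.04 in the high dose and 4.19, 5.77, 6.05 and 6.08 in DMSO, with the high dose close to DMSO and the combination above both. It rose by 1.86 (adjusted p = 5.19e-09). H1-5, a linker histone, measured 32.2, 19.1, 18.4 and 18.1 CPM in the combination, against 5.72, 6.66, 2.9 and 5.72 in the high dose and 15.4, 18.3, 20.4 and 6.4 in DMSO. The combination lay above every high-dose library, while DMSO overlapped both, and the gene rose by 2.05 (adjusted p = 2.55e-05). H2BC4 and H2BC12 rose by 1.75 and 2.26. H2BC11 measured 4.88, 5.86, 4.54 and 3.08 CPM in the combination and 3 counts in all over the 4 high-dose libraries, so no fold is given. H4C3, which took the most counts of the list, measured 3402, 2315, 3227 and 4215 CPM in the combination, against 2512, 2205, 1963 and 4235 in the high dose and 2024, 2615, 2828 and 2546 in DMSO, overlapped fully and was not called (log2 fold change 0.27, adjusted p = 0.463). SLBP, the protein that binds the stem loop, was in the list too and was not called (0.13).

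**Figure D5:**
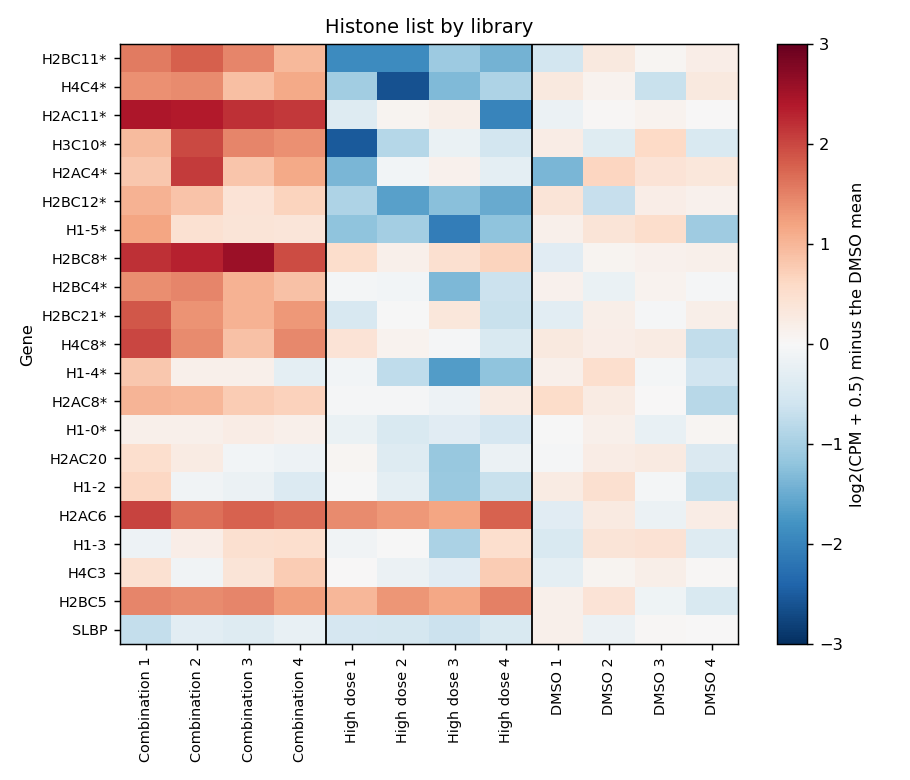
Heat map of the 21 tested members of the histone list (rows, ordered by the difference, stars at called genes) in each library (columns, combination, high dose and DMSO), coloured by log2 (CPM + 0.5) minus the DMSO mean of the gene, with red for higher and blue for lower, limited at 3. The upper rows are red in the 4 combination libraries and pale or blue in the high dose, while H2AC6 and H2BC5 are red in both treated groups and H4C3 is pale throughout.

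Replication genes were mixed or slightly lower, and fewer of them were called. Of 17 licensing and helicase genes 4 fell and 0 rose (median -0.12). CDT1, which loads the MCM helicase at origins, measured 25.97, 33.6, 25.2 and 29.7 CPM in the combination, against 55.4, 65.4, 57.1 and 71.4 in the high dose and 30.8, 36.6, 42.9 and 45.6 in DMSO. Its combination libraries lay below every high-dose library and overlapped DMSO, with a log2 fold change of -1.12 ± 0.13 SE (adjusted p = 9.14e-08). MCM10, which starts unwinding, fell by 0.38. Of 24 genes for fork polymerases, the clamp and nucleotide supply 5 fell and 1 rose (median -0.17); 9 fell under the replicate block and 3 without combination replicate 1. The clamp loader subunits RFC4 and RFC1 fell by 0.55 and 0.42, and POLD3, a subunit of polymerase delta, by 0.49. Of 19 genes for E2F factors, cyclin E and RB proteins 4 fell and 1 rose; the 4 became 1 without high-dose replicate 3 and 2 without combination replicate 1, 2 or 3. E2F1, which drives replication genes, measured 85.00, 99.8, 83.8 and 84.3 CPM in the combination, against 111, 119.8, 124 and 95.4 in the high dose and 139, 135, 131 and 129 in DMSO, and fell by 0.35 (adjusted p = 0.00546), although the highest combination library lay above the lowest high-dose library. E2F7, a repressor among the E2F factors, rose by 0.78 (adjusted p = 0.00329).

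Fanconi and homologous recombination genes, which mend broken forks, had 7 of 26 tested members lower and 0 higher (median -0.24); 4 were lower without high-dose replicate 3. FANCE, of the Fanconi core complex, measured 9.54, 14.99, 12.7 and 13.6 CPM in the combination, against 22.7, 27.6, 22.9 and 22.7 in the high dose and 16.2, 14.5, 14.7 and 12.2 in DMSO, and fell by 0.90 (adjusted p = 0.000146) with no overlap. BRIP1, the BRCA1-associated helicase, fell by 0.50 and TOP3A by 0.45. BRCA1 and BRCA2 had log2 fold changes of -0.15 and -0.05 and were not called. Of 20 genes of the ATR-CHK1 checkpoint 4 were higher and 0 lower, and 5 were lower with the replicate number as a block. RPA3, a subunit of the single-strand binding protein, measured 70.8, 80.6, 58.6 and 80.5 CPM in the combination, against 49.7, 43.8, 48.6 and 52.97 in the high dose and 74.98, 77.5, 72.5 and 94.6 in DMSO, and rose by 0.58 (adjusted p = 0.000274). ETAA1, an activator of ATR, rose by 0.52, and CDC25B, the phosphatase that releases CDK1 for mitosis, by 0.53.

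The transcripts of CHK1, MUS81 and the dynamins had small differences. CHEK1 (chromosome 11, 125625136 to 125676255), which encodes CHK1, measured 27.7, 31.9, 39.7 and 33.00 CPM in the combination, against 31.7, 46.5, 36.8 and 55.9 in the high dose and 32.9, 30.6, 37.3 and 27.5 in DMSO. The treated groups overlapped, and the log2 fold change of -0.37 ± 0.15 SE missed the threshold (adjusted p = 0.0762), but passed it with the replicate number as a block (adjusted p = 0.0164). MUS81 (chromosome 11, 65857126 to 65867653) measured 44.8, 44.97, 47.7 and 51.7 CPM in the combination, against 45.2, 50.1, 58.8 and 45.8 in the high dose and 61.5, 49.4, 45.7 and 54.3 in DMSO, with overlap throughout and a log2 fold change of -0.08 ± 0.11 SE (adjusted p = 0.673). EME1, its binding partner, measured 41.7, 31.2, 34.7 and 33.00 CPM in the combination, against 26.6, 19.1, 22.9 and 21.4 in the high dose and 31.02, 42.9, 39.5 and 26.7 in DMSO. The combination overlapped DMSO and lay above every high-dose library, and EME1 rose by 0.64 (adjusted p = 0.00317). Of the fork nucleases and remodellers in this list 2 of 17 were higher and 2 lower, shares near those over all genes tested, or 4 lower with the block. The 2 higher became 1 without combination replicate 1 or 3 or high-dose replicate 1, 3 or 4, and the 2 lower became 1 without combination replicate 2 or 4 or high-dose replicate 2 or 4. RBBP8, which encodes the end-resection factor CtIP, fell by 0.45.

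Among the dynamins, DNM2, the ubiquitous form, measured 62.6, 58.6, 58.1 and 45.3 CPM in the combination, against 69.2, 66.8, 69.1 and 70.1 in the high dose and 53.1, 61.2, 53.6 and 64.7 in DMSO, and its fall of 0.30 was called narrowly (adjusted p = 0.0376). That call was lost without combination replicate 3 or 4 or without any 1 of the 4 high-dose libraries (adjusted p up to 0.186). DNM1, the neuronal form, measured 18.2 ± 3.25 CPM in the combination and 20.3 ± 2.48 in the high dose, and DNM3 6.07 ± 2.47 in the combination and 8.2 ± 2.27 in the high dose (SD, n = 4 each); neither was called (log2 fold changes -0.15 and -0.45). Of 30 tested endocytosis genes 5 were lower (16.7%) and 2 higher (6.67%), against 10.1% and 10.4% of all genes tested. AMPH, amphiphysin, a partner that brings dynamin to the membrane, measured 19.8, 17.2, 13.8 and 18.9 CPM in the combination, against 31.2, 39.3, 39.5 and 35.8 in the high dose and 21.3, 19.1, 25.99 and 18.3 in DMSO, and fell by 1.06 (adjusted p = 1.85e-06). Its combination and DMSO libraries overlapped and its high-dose libraries were all higher. BIN1, a related protein, fell by 0.51, while CLTC, the clathrin heavy chain, rose by 0.28. The 5 became 3 without combination replicate 3 or high-dose replicate 1 or 3, and the 2 became 1 without combination replicate 4.

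Of 20 genes of the unfolded protein response and the chaperones of the endoplasmic reticulum 4 fell and 2 rose (median -0.02). XBP1, the transcription factor of the response, measured 39.3, 41.5, 33.8 and 46.6 CPM in the combination, against 74.5, 75.8, 66.4 and 93.03 in the high dose and 37.7, 38.6, 36.1 and 40.7 in DMSO, and fell by 0.94 (adjusted p = 1.25e-07). Its combination libraries overlapped DMSO, and its high-dose libraries were all higher. ERN1, which encodes the sensor IRE1, fell by 0.97, HERPUD1, a degradation adaptor, by 0.82 and DNAJB9 by 0.87. The chaperone HSPA5 (BiP) had a log2 fold change of -0.03 and CALR, calreticulin, of 0.04, and neither was called. SDF2L1, a BiP cofactor, rose by 0.50. The 2 that rose became 4 under the replicate block and 1 without combination replicate 2 or 3 or high-dose replicate 1, 3 or 4. Cholesterol and fatty acid synthesis had 10 of 28 tested members lower and 1 higher (median -0.17). The 1 higher, STARD4, a sterol carrier, lost its call without combination replicate 1, 2 or 4 or high-dose replicate 1, 2 or 3 (adjusted p up to 0.242). FADS1, a fatty acid desaturase, measured 568, 658, 585 and 619 CPM in the combination, against 922, 977, 841 and 999 in the high dose and 703, 652, 638 and 653 in DMSO, and fell by 0.62 (adjusted p = 4.75e-07). DHCR7 and FDFT1, enzymes of the sterol pathway, fell by 0.60 and 0.49, and SREBF2, the factor that drives it, by 0.47. For FADS1 the high-dose libraries lay above both other groups.

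MYCN (chromosome 2, 15940564 to 15947007), the oncogene that IMR-32 carries in many copies, measured 1151, 1279, 1205 and 1480.4 CPM in the combination, against 1267, 1319, 1200.1 and 1197 in the high dose and 1604, 1734, 1659 and 1943 in DMSO. Both treated groups lay below every DMSO library and overlapped each other, with a log2 fold change of 0.04 ± 0.09 SE between them (adjusted p = 0.817). Of 17 tested adrenergic factors 2 rose (4 with the replicate number as a block), a share near the 10.4% over all genes tested: HAND1 by 0.53 and HAND2 by 0.46. Another 4 fell, among them TBX2 by 0.55 and TWIST1 by 0.32. HAND2 measured 718, 695, 712 and 769 CPM in the combination, against 533, 525, 488 and 562 in the high dose and 748, 867, 778 and 716 in DMSO, and TBX2 measured 239, 273, 263 and 217 in the combination, against 348, 360.2, 378 and 369.5 in the high dose and 246, 200.1, 221 and 231 in DMSO. For both genes the combination overlapped DMSO and the high dose stood apart, below for HAND2 and above for TBX2.

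Catecholamine genes were split as well, 4 of 16 higher and 3 lower. SLC6A2, the noradrenaline transporter, measured 84.6, 77.9, 67.4 and 47.7 CPM in the combination, against 143, 141, 123 and 135 in the high dose and 57.1, 50.4, 48.2 and 48.3 in DMSO, and fell by 0.97 (adjusted p = 2.1e-06). Every high-dose library was above every library of the other groups. CHGA, chromogranin A of the secretory granule, rose by 0.56. The count of 4 was 2 without combination replicate 1 or high-dose replicate 1 or 3. Of 31 genes of the neuronal cytoskeleton and synapse 9 rose and 2 fell, and 15 rose and 4 fell under the replicate block. Without combination replicate 1 or 3 or high-dose replicate 2 or 4, 1 fell. Tubulin genes were among them: TUBB4B measured 333, 403, 352 and 380.2 CPM in the combination, against 148, 166, 157 and 138 in the high dose and 307, 262, 298 and 315 in DMSO, and rose by 1.27 (adjusted p = 3.84e-13). TUBA1A rose by 0.78 and TUBB2A by 0.69; tubulin genes share sequence, so reads may be split among them. NEFH, a neurofilament subunit, rose by 0.73.

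Immediate early genes, which answer growth signals within minutes, had 5 of 15 tested members higher and 2 lower, and 0 or 1 were lower without combination replicate 1, 2 or 4 or high-dose replicate 1, 3 or 4. EGR1 measured 22.4, 19.1, 28.8 and 15.4 CPM in the combination, against 9.86, 11.7, 12.3 and 9.6 in the high dose and 4.57, 5.01, 3.63 and 2.72 in DMSO, rising by 0.97 (adjusted p = 0.000943). The 3 groups did not overlap, and both treated groups were above DMSO. FOS measured 3.77, 5.0, 9.99 and 7.07 CPM in the combination and 1.58, 2.52, 2.18 and 1.11 in the high dose and rose by 1.78 (adjusted p = 0.00159), and IER3 rose by 1.06. JUN had a log2 fold change of 0.12 and was not called. HEXIM1, the inhibitor of the elongation kinase P-TEFb, measured 191, 165, 182 and 143 CPM in the combination, against 80.9, 88.1, 83.97 and 68.8 in the high dose and 63.8, 73.96, 61.5 and 70.1 in DMSO, and rose by 1.08 (adjusted p = 5.92e-10). Its high-dose libraries lay just above or within the DMSO range. MALAT1, a noncoding RNA of nuclear speckles, held 2.33% of the counts in the combination and 2.96% in the high dose, against 1.35% in DMSO, and was not called between the treated groups (log2 fold change -0.33, adjusted p = 0.346). Its level was 23598 ± 4964 CPM in the combination, 29593 ± 1548 in the high dose and 13529 ± 3999 in DMSO (SD, n = 4 each).

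Several other genes were among the 15 largest rises or falls without belonging to a list. LGALS1, galectin 1, measured 20.6, 22.6, 27.5 and 24.7 CPM in the combination, against 5.92, 7.56, 6.17 and 4.8 in the high dose and 9.13, 18.6, 11.3 and 13.6 in DMSO, and rose by 1.96 (adjusted p = 2.21e-08). DHRS2, a mitochondrial reductase, rose by 1.67, TST, the sulphur transferase rhodanese, by 1.66, and the noncoding RNA LINC01828 by 1.68. Genes or copies of small noncoding RNAs were also among the largest rises. RNU4-82P, SNORD3A, RNU6-11P and RNU4-2 rose by 1.94, 1.71, 1.58 and 1.53, and among the falls RNY1P9 fell by 1.26. Assignment of reads among such copies is uncertain. NR3C1, the glucocorticoid receptor, measured 20.4, 20.5, 24.1 and 18.3 CPM in the combination, against 48.5, 48.98, 53.7 and 46.7 in the high dose and 31.6, 28.3, 23.6 and 23.7 in DMSO, and fell by 1.25 (adjusted p = 2.76e-08). TUBGCP3, of the gamma-tubulin ring, fell by 1.30, LPAR1, a receptor for lysophosphatidic acid, by 1.22, and CREB5, TRIM66 and TLCD4 by 1.28, 1.33 and 1.29. For NR3C1 and LGALS1 the treated groups did not overlap.

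The nuclear-encoded respiratory chain had 12 of 37 tested members higher and 0 lower (median 0.21), with 20 higher under the block; 12 became 6 without combination replicate 2 or high-dose replicate 3, 3 without combination replicate 4 and 4 without high-dose replicate 1. ATP5F1B, the catalytic subunit of ATP synthase, rose by 0.48 (adjusted p = 0.000584). Ribosome biogenesis genes that MYC proteins drive had 6 of 24 tested members higher and 1 lower, and the 6 became 2 without combination replicate 2, 3 without combination replicate 4 and 1 without high-dose replicate 3. Hypoxia and glycolysis genes were lower in 5 of 27 cases, 9 under the block, and higher in 3, the second share being near that over all genes tested. The 5 became 3 without combination replicate 2 or 3 or high-dose replicate 4, and the 3 became 1 without combination replicate 2 or 4 or high-dose replicate 1 or 3. VEGFA, the vascular growth factor, fell by 0.83 and ALDOC, a brain aldolase, by 0.91, while SLC2A1 rose by 0.51. The median of the hypoxia and glycolysis list was 0.13. Lysosome genes had 5 of 31 tested members higher and 4 lower, shares near the 10.4% and 10.1% over all genes tested, and interferon and cytosolic DNA response genes higher in 4 of 11, with B2M at 0.42; without combination replicate 4 the 5, 4 and 4 became 2, 2 and 2. The 5 lysosome genes became 3 without combination replicate 2 or high-dose replicate 3, and the 4 interferon genes became 2 without high-dose replicate 1.

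The single agents were also measured at their own doses. CDKN1A measured 425 ± 29.3 CPM in the combination and 171 ± 26.3 in the high dose, 123 ± 37.2 with Dyngo-4a at 1 µM, 91.7 ± 10.8 with prexasertib at 2 nM and 53.99 ± 12.4 in DMSO (SD, n = 4 each). HSPA1B measured 176 ± 29.9 CPM in the combination and 22.5 ± 3.21 in the high dose, 53.1 ± 1.76 at 1 µM, 89.5 ± 18.4 with prexasertib and 67.1 ± 9.71 in DMSO. CHAC1 measured 7.26 ± 0.713 CPM in the combination and 30.6 ± 9.14 in the high dose, 3.6 ± 1.71 at 1 µM, 4.77 ± 1.53 with prexasertib and 3.47 ± 0.484 in DMSO. For CDKN1A and HSPA1B the combination mean was the highest of the 5 groups, and for CHAC1 the high-dose mean was. Because replicates 1 and 3 stood apart from replicates 2 and 4, the comparison was repeated within each pair of numbers: the 163 called genes that the naming rule chose kept their direction in both. CDKN1A had a log2 fold change of 1.36 within replicates 1 and 3 (adjusted p = 0.0889, no longer called) and 1.28 within replicates 2 and 4 (adjusted p = 8.74e-07). CHEK1 had -0.03 within replicates 1 and 3 and -0.65 within replicates 2 and 4. MALAT1 had -0.10 within replicates 1 and 3 (adjusted p = 0.533) and -0.59 within replicates 2 and 4 (adjusted p = 0.00167, called). With 2 libraries a group within replicates 2 and 4, the kinesin, centromere and spindle genes called higher became 9 (21 with all libraries), those of the p53 pathway 12 (21), NRF2 targets 4 (7), and the cholesterol genes called lower 6 (10). The Fanconi and recombination genes called lower became 4 within replicates 1 and 3 and 3 within replicates 2 and 4 (7 with all libraries). Further lists lost calls as well. Within replicates 1 and 3 the interferon genes called higher became 0 (4 with all libraries) and the respiratory chain genes 4 (12). There the hypoxia genes called higher became 0 (3), the catecholamine genes called higher 1 (4) and the fork nucleases called lower 0 (2). Within replicates 2 and 4 the E2F genes called lower became 0 (4) and the interferon genes called higher 2 (4).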

How the data were processed

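RNA was measured in 20 libraries of IMR-32 cells with a 3′ mRNA kit carrying molecular identifiers, 4 libraries per group. The authors deposited raw counts for 58787 Ensembl genes; all columns were mapped by their names to the samples' labels. The submitters' processing notes name FastQC 0.11.7, STAR 2.7.2b, edgeR 3.36.0, limma 3.50.3 and GRCh38. The strand setting of the counting and the collapsing of molecular identifiers are not given in the sources used, so overlapping and antisense genes are uncertain.

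From the deposited counts, edgeR 4.0.16 in R 4.3.3 was fitted with robust quasi-likelihood over all 20 libraries with 1 term per group (15 residual degrees of freedom), after filterByExpr (minimum count 10, minimum total 15) and TMM scaling. The combination minus the high dose was tested, with Benjamini-Hochberg adjustment over 13729 genes and a threshold of 0.05. CPM values are TMM-scaled. Totals ran from 3960885 to 6537843 counts per library, and the filter kept 99.6% to 99.8% of them. The biological coefficient of variation was 12.5%. The limit given for a count of 0 covers counting error only, while the SEs and SDs include the spread between libraries.

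The same fit was tested on simulated counts for this comparison (13500 genes), with 67, 67 and 66 genes changed 1.5-fold, 2-fold and 4-fold. It recovered 32.8%, 67.2% and 90.9% of them, with 9 false calls. The share of changed genes was far below the 20.5% called in the data, so recovery there may differ. Same-numbered libraries of both groups deviated together (r = 0.203, 0.218, 0.172 and 0.319), so the replicate numbers may pair the samples. The labels do not state a pairing. The main fit left the replicate numbers out, and a block for them was run as an alternative. Alternatives were other scalings and filters, the block, a term for replicates 1 and 3 against 2 and 4, each of those subsets, the compared groups alone, each library left out, DESeq2 1.42.0 and limma-voom (limma 3.58.1).

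Genes were named by rule: the 15 largest rises and falls among called genes whose mean log2 CPM reached 3 and whose groups did not overlap, up to 5 called members of each list with the smallest p, and 9 genes of prior interest. The members and lists were chosen with earlier results of these data known. Other list members named were chosen after their values were seen, among them ASNS, DDIT3, BTG2, SESN1, GDF15, PURPL, CCNB1, PLK1, HSPA8, HSPB1, HSPE1, HSPH1, SLC3A2, TFDP2 and the serine and one-carbon enzymes, as were uncalled members given for contrast. Gene names and coordinates follow GENCODE 29 on GRCh38, with 58434 identifiers given a symbol.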

Additional observations from a re-analysis of the deposited data

Results flagged for a closer look

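Among the 169 genes chosen by the naming rule, 17 of 338 groups of 4 libraries (5.03%) held 1 library whose gap to the nearest other exceeded Dixon's 95% critical value as a share of the group's range, and chance flags about 1 in 20 groups. In the combination, replicate 1 was the highest of its group for H1-5 at 32.2 CPM, against 18.1 to 19.1 in the other libraries, for MXI1 at 78.6 CPM and for DNM3 at 9.77 CPM. Combination replicate 2 was the highest for E2F1 at 99.8 CPM, against 83.8 to 85.0, and replicate 4 for SLC2A1 at 47.5 CPM. In the high dose, replicate 1 was the lowest for ALDOC at 15.4 CPM, against 27.57 to 28.98 in the others, for RFC4 at 80.9 CPM and for HEXIM2 at 13.2 CPM, and the highest for AP2M1 at 145.5 CPM. High-dose replicate 2 was the highest for TLCD4 at 24.5 CPM, CDC25B at 94.0 CPM, FANCE at 27.6 CPM and GCLM at 35.3 CPM. High-dose replicate 3 was the lowest for HMMR at 39.4 CPM, against 54.0 to 54.8 in the others. High-dose replicate 4 was the highest for PSMD12 at 140.6 CPM, KIF20A at 55.4 CPM and ATP6V1D at 81.4 CPM.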

How the results depend on the processing

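Of the 163 called genes that the rule named, all kept their direction under every alternative run, 32 lost the call without 1 library, 11 under another alternative that kept all replicate numbers, and 0 with the replicate block. The replicate block over the 20 libraries called 4002 genes, 2033 higher and 1969 lower, including all 2816 of the unblocked fit, and CHEK1 was the 1 named gene gained; with the block and only the compared groups 4231 genes were called, 2071 higher and 2160 lower. Within replicates 1 and 3 alone 1622 genes were called, 871 higher and 751 lower, and within replicates 2 and 4 alone 1554, 801 higher and 753 lower, each with 2 libraries a group; 39 and 34 named genes lost their call there. Leaving out 1 library gave 2269 to 2574 calls, DESeq2 2934 and limma-voom 2801. Uncalled genes changed sign in 5 cases: MUS81 was at 0.019 within replicates 2 and 4 and 0.0069 without high-dose replicate 3, DNM3 at 0.075 within replicates 1 and 3, and MYCN at -0.072 within replicates 1 and 3 and -0.047 without combination replicate 4; the cause was not tested. Without 1 library MUS81 ran from -0.133 to 0.0069 and MYCN from -0.047 to 0.088. Of simulated 1.5-fold changes 32.8% were recovered. The simulation did not vary depth and changed a far smaller share of genes than was called in the data. The part of depth and the recovery in this comparison cannot be read from it.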

Other observations

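The classes below were chosen after their values had been seen. Over all genes tested, 10.4% were called higher and 10.1% lower. Of 847 tested long noncoding RNA genes 121 were called higher than in the high dose and 26 lower by edgeR's quasi-likelihood test (median log2 fold change 0.25). As a class they took 3.64% of the counts in the combination and 4.18% in the high dose. An exact two-sided permutation test over libraries did not separate these shares (p = 0.229, adjusted p = 0.267), which were lower in the combination in all 4 same-numbered pairs. MALAT1 alone took 2.33% in the combination and 2.96% in the high dose, so the class share mostly reflects this 1 gene. Of the protein-coding genes, 1217 of 11636 were higher and 1330 lower (median -0.01). Antisense transcripts had 61 of 448 higher and 8 lower; without a stated strand setting, their reads and those of the overlapping genes cannot be told apart. Processed pseudogenes had 15 of 432 higher (3.47%) and 4 lower (0.926%), and sense-intronic transcripts 5 of 138 higher (3.62%) and 3 lower (2.17%). These shares were below those over all genes tested. Sense-overlapping transcripts had 2 of 35 higher (5.71%) and 4 lower (11.4%), the second share near that over all genes tested. Of 50 tested genes annotated as small nuclear RNAs, many of them near-identical copies whose counts are uncertain, 17 were higher and 0 lower (median 0.62). As a class they took 0.184% of the counts in the combination and 0.130% in the high dose, which an exact two-sided permutation test over libraries did not separate (p = 0.0857; p = 0.16 adjusted over the 7 classes examined). That test ignores the replicate numbers, and the combination was higher in all 4 same-numbered pairs. The library kit primes on poly(A), and how transcripts of this class came to be counted was not tested.

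Over all 65 replication-dependent histone genes of the table, 35 of 44 tested were higher and 0 lower (median 1.77). Their summed share was 0.454% of the counts in the combination and 0.347% in the high dose (exact two-sided permutation test, p = 0.114, adjusted p = 0.16), and it was higher in the combination in all 4 same-numbered pairs. Without H4C3 the share was 0.108% to 0.156% in the combination and 0.065% to 0.092% in the high dose, with no overlap (the same exact permutation test, p = 0.0286, the smallest that 4 against 4 libraries allow, adjusted p = 0.16). H4C3 had been seen not to be called, and 35 of the 43 tested genes that remain had been called higher. The separation is therefore no further support for the rise.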
